A study of Homo sapiens with 37 samples.

Results

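The C/EBP genes CEBPA (ENSG00000245848.2), CEBPB (ENSG00000172216.5), CEBPD (ENSG00000221869.4) and CEBPG (ENSG00000153879.7) were followed through every library of an APEX-seq study of HEK293T, a cell line from human embryonic kidney. They are 4 of the 60483 gene IDs in each of 2 count tables, matched by Ensembl ID. CEBPA was chosen by its measured counts. These were far higher in every pulldown of the unstressed (naive) set of 20 libraries than in that set's inputs. Those pulldown-over-input values therefore describe the choice and carry no test. CEBPB, CEBPD and CEBPG were taken as its relatives.

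C/EBP proteins (CCAAT/enhancer-binding proteins) are basic leucine zipper transcription factors that bind DNA as homodimers or as heterodimers with each other. C/EBPα drives differentiation of granulocytes, fat cells and hepatocytes and slows cell division; C/EBPβ acts in inflammation, liver and fat; C/EBPδ is an acute-phase and early adipogenic factor; and C/EBPγ lacks a strong activation domain, so it mainly works as a dimer partner, including with the stress factor ATF4. CEBPA, CEBPB and CEBPD are intronless genes, and CEBPA and CEBPB mRNAs are translated from several start codons under control of upstream reading frames.

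APEX is a peroxidase that, fused to a protein, attaches biotin to RNA near that protein. Per the labels, cells were given 500 µM biotin-phenol for 30 min and 1 mM H2O2 for 1 min, RNA was taken with TRIzol, and biotinylated RNA was bound to streptavidin beads. That bead-bound RNA is the pulldown, and the other RNA libraries are labelled inputs. The unstressed (naive) set has 20 libraries, 2 inputs and 2 pulldowns for each of 5 fusions: APEX-CBX1 (a chromatin protein), C1-APEX, APEX-GFP, APEX-eIF4E (the cap-binding factor) and APEX-eIF4A (its partner RNA helicase). The stress set has 17 libraries, all from cells carrying APEX-eIF4A: T0, labelled naive (2 inputs, 2 pulldowns); heat shock at T20 (2 and 2) and at T4 (1 and 1), with no unit of T in the labels; hippuristanol, an eIF4A inhibitor (2 and 2); and its solvent DMSO (1 input, 2 pulldowns). What the C1 tag is and how the fusions were delivered are not given in the labels. IDs carry no gene names in these tables, so the cell line was not checked against marker genes.

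CEBPA and CEBPG are neighbours on chromosome 19, and their start regions are shown because only CEBPA of the pair had the high pulldown counts; CEBPB is shown as a relative that, like CEBPA, is intronless. In RefSeq's GRCh38.p14 annotation, CEBPA spans chr19:33299934-33302534 on the minus strand, the lncRNA gene CEBPA-DT begins 287 bases beyond its start, and CEBPG spans chr19:33373709-33382686 on the plus strand, 71175 bases from CEBPA. CEBPB spans chr20:50190583-50192690 on the plus strand. The 250 bases before an annotated start are given 5′ to 3′ on the gene's strand, from RefSeq. Capitals mark each match, on either strand, to the CCAAT box (CCAAT, or ATTGG in reverse) or the TATA box (TATAAA, or TTTATA in reverse).
CEBPA, chr19:33302535-33302784, minus strand: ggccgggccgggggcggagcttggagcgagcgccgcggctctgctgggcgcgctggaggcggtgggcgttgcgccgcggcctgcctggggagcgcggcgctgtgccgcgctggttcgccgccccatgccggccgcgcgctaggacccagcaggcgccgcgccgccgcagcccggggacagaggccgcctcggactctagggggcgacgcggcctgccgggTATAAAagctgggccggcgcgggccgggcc
CEBPG, first annotated start, chr19:33373459-33373708, plus strand: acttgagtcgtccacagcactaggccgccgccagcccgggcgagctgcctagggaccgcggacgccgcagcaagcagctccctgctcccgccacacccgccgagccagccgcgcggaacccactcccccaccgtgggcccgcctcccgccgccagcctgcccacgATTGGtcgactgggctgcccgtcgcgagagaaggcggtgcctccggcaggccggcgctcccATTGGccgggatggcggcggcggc
CEBPB, second annotated start, chr20:50190580-50190829, plus strand: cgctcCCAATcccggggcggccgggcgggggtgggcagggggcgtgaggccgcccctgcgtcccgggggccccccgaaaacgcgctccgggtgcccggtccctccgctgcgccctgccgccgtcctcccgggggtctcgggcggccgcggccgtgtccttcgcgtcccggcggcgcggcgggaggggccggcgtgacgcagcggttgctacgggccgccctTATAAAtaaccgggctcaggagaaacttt

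The CEBPA window lies between CEBPA and CEBPA-DT. It had a TATAAA match at bases -30 to -25 before the start and no CCAAT match. CEBPG's window had 2 reverse CCAAT matches, at -85 to -81 and -24 to -20, and no TATAAA match. CEBPB's had TATAAA at -29 to -24 and CCAAT at -245 to -241. Unlike the other printed windows, CEBPB's lies almost wholly inside the gene's annotated span, because it precedes the second start. RefSeq's table also holds a window for CEBPB's first start and for CEBPG's second, not printed, and neither had a CCAAT or TATAAA match. Among 34943 windows of this length, 32.04% held CCAAT and 10.8% held TATAAA on either strand. The C/EBP recognition pattern TTGCNNAA was in 9.06% of windows and in none of these 3. The CEBPA window was 81.2% G and C, more than 97.7% of the windows, against 76.0% for CEBPG, 77.6% for CEBPB and a median of 58.0%. All 4 genes were matched in RefSeq's gene annotation, and of these only CEBPA, CEBPB and CEBPG had their start regions examined.

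Naive libraries held 1419968 to 2629957 counts in inputs and 1718517 to 3276410 in pulldowns; the 10 highest IDs took 68.6% to 75.3% of input and 55.6% to 70.0% of pulldown counts. Stress inputs were deeper, 4540426 to 7782943 counts, and stress pulldowns shallower, 707356 to 1221213; their 10 highest IDs took 6.08% to 16.3% and 16.7% to 30.7%. The C1 pulldown replicates stood apart from each other, with a correlation of log2 CPM across IDs of 0.761. The remaining 4 naive pulldown pairs had 0.904 to 0.951 (IDs are not replicates). A correlation does not tell which library of a pair differs. C1 values of CEBPA are also given without C1 pulldown replicate 1, its highest library. Stress pulldown pairs correlated at 0.613 to 0.730. Levels below are CPM, counts relative to the library total after TMM scaling within a set, a correction for libraries in which a few genes take many reads.

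CEBPA was a low-count gene in the naive inputs and among the most abundant IDs of every naive pulldown. The CBX1 inputs held 27 and 21 CEBPA counts and the CBX1 pulldowns 11558 and 4612. The C1 inputs held 17 and 15 and the C1 pulldowns 30109 and 10689. The GFP inputs held 26 and 29 against 5029 and 7284 in pulldowns, the eIF4E inputs 27 and 20 against 11517 and 2571, and the eIF4A inputs 12 and 30 against 3599 and 3794. No pulldown overlapped any input. CEBPA ranked 9 to 25 among all IDs in the pulldowns and 3095 to 6385 in the inputs, and took 0.105% to 1.72% of pulldown counts.

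**Figure D1:**
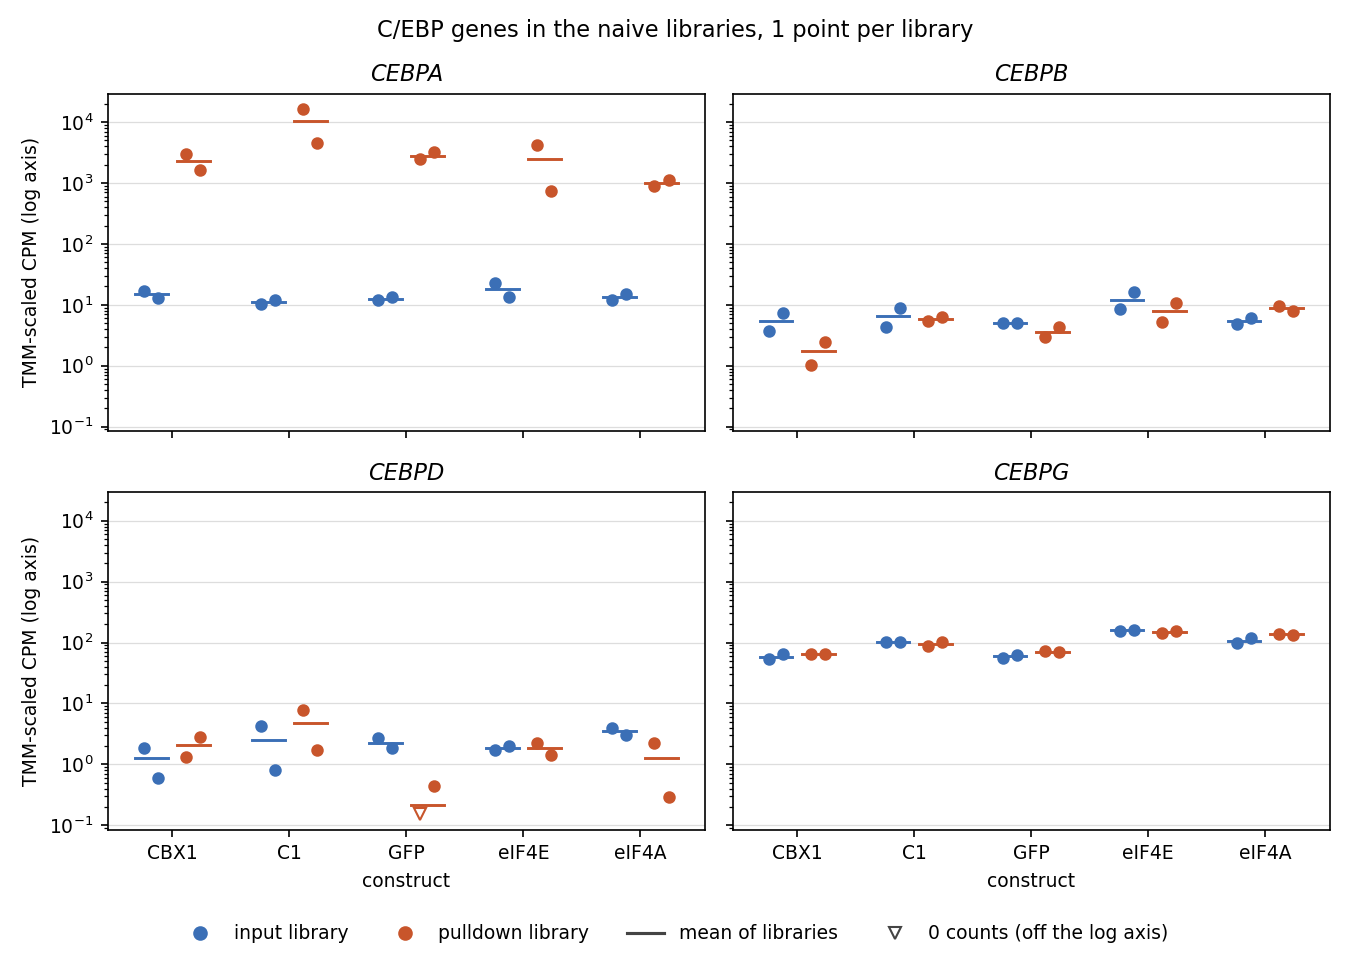
TMM-scaled CPM (log axis) of each C/EBP gene in the 20 naive libraries, by construct; blue points are inputs, orange points pulldowns, and bars the mean of 2 libraries. CEBPA pulldowns lie between 744 and 16527 CPM against 10.5 to 22.9 in inputs, while CEBPG stays between 54.1 and 158.5 CPM in both fractions.

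Input levels of CEBPA were 11.2 ± 1.06 CPM with C1, 12.5 ± 1.05 with GFP, 13.4 ± 2.34 with eIF4A, 14.9 ± 3.001 with CBX1 and 18.1 ± 6.75 with eIF4E (SD, n = 2 each). Pulldown levels ordered the constructs as eIF4A 1013 ± 145, CBX1 2314 ± 979, eIF4E 2489 ± 2469, GFP 2813 ± 520 and C1 10553 ± 8448 CPM (SD, n = 2 each). CBX1, eIF4E and GFP did not differ beyond their spread. The eIF4E replicates were 4235 and 744 CPM, so that group spanned the eIF4A libraries (911 and 1115) as well as both CBX1 libraries (3007 and 1622). C1 replicate 1 was the highest library at 16527 CPM and C1 replicate 2, at 4579 CPM, was the next highest.

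Fitted log2 fold changes of CEBPA pulldown over input, given as description, were 9.88 ± 1.14 for C1, 7.80 ± 1.04 for GFP, 7.28 ± 1.04 for CBX1, 7.13 ± 1.04 for eIF4E and 6.19 ± 1.04 for eIF4A (SE, 2 against 2 libraries), and 7.66 ± 0.47 over all 5. Without C1 pulldown replicate 1 the C1 value was 8.66, and without C1 pulldown replicate 2 it was 10.49. Without eIF4E pulldown replicate 1 the eIF4E value was 5.40, and without eIF4E pulldown replicate 2 it was 7.91. Of 12427 IDs tested, CEBPA had the highest fold for C1, GFP, CBX1 and eIF4E and the third highest for eIF4A. It was the only ID at a log2 fold of 5 or more with all 5 constructs; 44 IDs reached 1 with all 5, and 2 reached 4. The share of all tested IDs called at an adjusted p under 0.05 (edgeR, Benjamini-Hochberg) was 2.18% with eIF4A, 2.51% with eIF4E, 3.91% with CBX1, 4.04% with GFP, 6.45% with C1 and 24.1% for their mean. These values are relative to the total of each bulk library. Neither the number of labelled cells nor the amount of labelled CEBPA RNA per cell was measured.

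None of CEBPA's differences between constructs was called. Their standard errors come from a spread shared by all groups, including the C1 and eIF4E pulldowns, whose replicates were far apart. In single-construct fits, the SE of CEBPA's fold was 0.18 for eIF4A, 0.19 for GFP, 0.78 for C1 and 1.63 for eIF4E (CBX1 was not followed). Fits of only the compared libraries called 0 of 21 differences over CEBPA, CEBPB and CEBPG. At an unadjusted p under 0.05 there were 4. Per comparison, 431 of 11582 to 1544 of 11810 IDs were under that limit. Of all IDs, these fits called 38 of 11169 for CBX1 over GFP, 94 of 11810 for eIF4A over CBX1 and 62 of 11248 for eIF4E over CBX1. They called 0 IDs for C1, eIF4E and eIF4A over GFP and for eIF4A over eIF4E. CEBPA's eIF4A pulldowns (911 and 1115 CPM) both lay below its GFP pulldowns (2446 and 3181 CPM). Relative to GFP, the input-adjusted log2 difference (pulldown over input of a construct minus that of GFP) was 2.08 ± 1.64 for C1 (95% interval -1.55 to 5.71; 0.86 without C1 pulldown replicate 1), -0.52 ± 1.54 for CBX1 (-3.94 to 2.90), -0.67 ± 1.55 for eIF4E (-4.11 to 2.77) and -1.62 ± 1.61 for eIF4A (-5.18 to 1.95; SE). eIF4A minus eIF4E was -0.95 ± 1.63 (-4.56 to 2.67). edgeR's adjusted p ran from 0.781 to 1.00. Each interval spans over 6 log2 units. The sign of the eIF4E difference from GFP turned without eIF4E pulldown replicate 2 (0.11), and that of eIF4A minus eIF4E turned without eIF4E pulldown replicate 1 (0.79). Among all IDs, 0.161% were called for CBX1 over GFP and 0% for each of the other 4 comparisons (C1, eIF4E and eIF4A with GFP, and eIF4A with eIF4E), where 1045, 472, 411 and 251 IDs had an unadjusted p under 0.05. With DESeq2 the calls against GFP numbered 44 for CBX1, 1 for eIF4A, 0 for eIF4E and 0 for C1, and 0 for eIF4A over eIF4E.

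No relative of CEBPA was called in the naive pulldowns. CEBPG, the dimer partner, had 86 to 238 counts in naive inputs (median 131.0) and 147 to 554 in pulldowns (median 243.0). Its levels were 58.9 ± 6.78 CPM in CBX1 inputs and 65.0 ± 1.07 in CBX1 pulldowns, 59.1 ± 4.57 and 70.2 ± 1.76 for GFP, 100.4 ± 0.10 and 94.8 ± 10.7 for C1, 107.4 ± 14.5 and 136.4 ± 5.36 for eIF4A, and 158.0 ± 0.687 and 147.0 ± 8.19 for eIF4E (SD, n = 2 each). Pulldowns lay above inputs in CBX1, GFP and eIF4A, below them in eIF4E, and overlapped in C1. For CBX1 the lowest pulldown was only 1.01 times the highest input. How many of all IDs separate in this way was not counted, so the pattern is given as description.

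CEBPG's fitted log2 pulldown over input was 0.33 ± 0.14 with eIF4A, 0.25 ± 0.15 with GFP, 0.14 ± 0.16 with CBX1, -0.08 ± 0.15 with C1 and -0.10 ± 0.14 with eIF4E, with a 5-construct mean of 0.11 ± 0.07 (SE; 95% interval -0.03 to 0.24; edgeR adjusted p = 0.255). None was called. This depended on scaling: with plain library sizes the eIF4E value turned from -0.10 to 0.77 and was called (edgeR adjusted p = 0.00115), as were eIF4A (1.14, adjusted p = 2.29e-05) and the mean (0.60, adjusted p = 4.61e-07). That scaling also raised the median fold of all tested IDs by 0.87 for eIF4E, 0.80 for eIF4A and 0.49 for the mean. It called 4525, 3940 and 6685 of all 12427 IDs in these comparisons, against 312, 271 and 2990 with TMM.

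CEBPB, the inflammatory and adipogenic relative, was near the lower end of detection. It had 5 to 24 counts in naive inputs (median 11.0) and 4 to 38 in pulldowns (median 12). Levels were 5.53 ± 2.48 CPM in CBX1 inputs and 1.75 ± 1.00 in CBX1 pulldowns, and 5.47 ± 0.796 and 8.78 ± 1.19 for eIF4A (SD, n = 2 each). CBX1 and GFP pulldowns lay below their inputs, eIF4A pulldowns lay above, and C1 and eIF4E overlapped. This too is description, as the share of all IDs without overlap was not counted. The log2 pulldown over input was -1.69 ± 0.64 for CBX1 (SE; edgeR adjusted p = 0.156), -0.62 ± 0.50 with eIF4E, -0.45 ± 0.59 with GFP, -0.09 ± 0.58 with C1 and 0.65 ± 0.54 with eIF4A, and the mean was -0.44 ± 0.26 (adjusted p = 0.225). None was called, but eIF4A was with plain library sizes (1.44, edgeR adjusted p = 0.0439). That setting called 3940 of all 12427 IDs for eIF4A, against 271 with TMM. It also gave the C1 value (0.07), the eIF4E value (0.28) and the mean (0.05) the opposite sign.

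Over CEBPB and CEBPG together, 0 of 12 naive pulldown-over-input values were called by edgeR. At an unadjusted p under 0.05 there were 2, against 11.8% to 22.3% of all IDs for the single constructs and 35.3% for the mean. Of the 9 with an adjusted p from DESeq2, it called 0. Of all IDs with one, DESeq2 called 439 of 10779 for CBX1, 741 of 10779 for C1 and 551 of 5610 for GFP. For eIF4E it called 391 of 3671, for eIF4A 354 of 3671 and for the mean 2681 of 14657. After TMM scaling, some constructs had both pulldowns above both inputs and others both below. Their differences, picked for that pattern, were not called. For CEBPG the low eIF4E pulldowns turned with plain library sizes (183.3 and 215.5 CPM against 125.1 and 110.7 in inputs). With DESeq2's own scaling, CEBPG's eIF4E pulldown over input stayed at -0.10. For CEBPB, eIF4A minus CBX1 was 2.34 ± 0.84 (SE; edgeR adjusted p = 0.427) and eIF4A minus GFP was 1.10 ± 0.80 (adjusted p = 1.00). For CEBPG, eIF4E minus CBX1 was -0.24 ± 0.21 (adjusted p = 0.846), eIF4E minus GFP -0.35 ± 0.21 (adjusted p = 1.00) and eIF4A minus eIF4E 0.43 ± 0.20 (adjusted p = 1.00). Among all IDs 0.37% were called for eIF4A over CBX1 and 0.322% for eIF4E over CBX1.

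CEBPD, the acute-phase member, was barely detected in the naive set. Its gene lies on chromosome 8, from base 47736913 to 47738164 in GRCh38.p14. It had 1 to 7 counts in inputs (median 3.5) and 0 to 14 in pulldowns (median 5.0) and did not pass the filter on low counts, so it was not tested there. GFP pulldown replicate 1 had 0 counts, which allows a level of up to 1.46 CPM (3 counts; this limit covers counting error only). Its highest library was C1 pulldown replicate 1, with 14 counts.

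**Figure D2:**
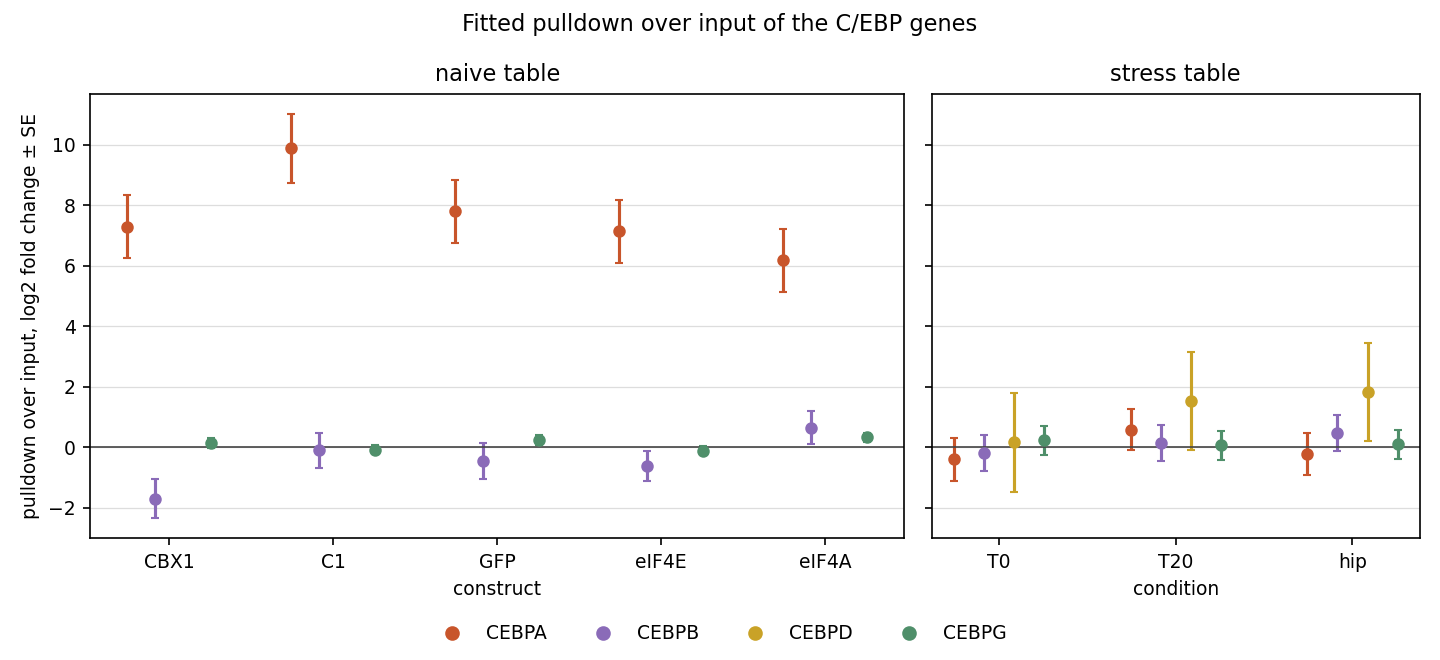
Fitted log2 fold change of pulldown over input for each C/EBP gene, with bars of 1 SE, by naive construct (left) and stress condition (right); CEBPD was not tested in the naive set. CEBPA lies between 6.19 and 9.88 in the naive set and between -0.39 and 0.58 in the stress set, and the other genes lie between -1.69 and 1.83.

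Per kilobase of RefSeq span, the comparison allowed for the intronless genes, naive inputs held 4.02 to 8.79 CPM of CEBPA (median 5.002), 1.79 to 7.58 of CEBPB (median 2.63) and 0.484 to 3.44 of CEBPD (median 1.55). The CEBPA and CEBPB ranges overlapped. In naive pulldowns CEBPA had 286 to 6354 CPM per kilobase, CEBPB 0.494 to 5.08 and CEBPD 0 to 6.14.

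The inputs themselves differed for CEBPG. Its level was higher than in GFP inputs for eIF4E (log2 1.42 ± 0.15, 95% interval 1.11 to 1.73, edgeR adjusted p = 1.14e-06), eIF4A (0.88 ± 0.15, 0.56 to 1.19, adjusted p = 0.00463) and C1 (0.76 ± 0.16, 0.45 to 1.08, adjusted p = 0.0203; SE), with no overlap between the libraries compared. CBX1 inputs, at 54.1 and 63.7 CPM, overlapped GFP inputs, at 55.8 and 62.3 CPM, and differed by 0.00 ± 0.16 (adjusted p = 0.999). CEBPG was thus 1 of 3 tested members called for eIF4E, eIF4A and C1, where 2.78%, 0.579% and 0.33% of all tested IDs were called; for CBX1, 0 of 3 were called, against 0.0885%. The 4 comparisons share the GFP inputs.

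**Figure D3:**
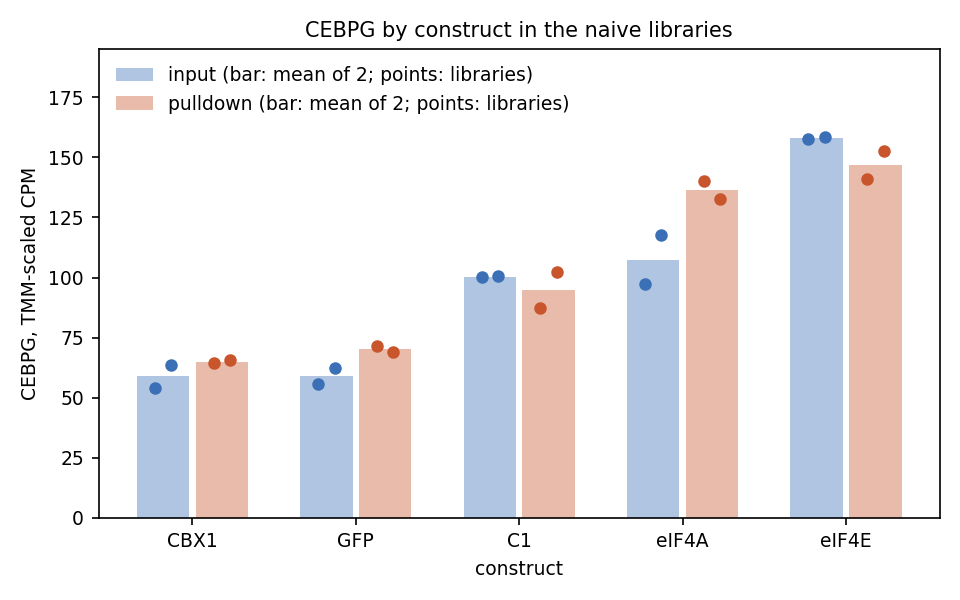
TMM-scaled CPM of CEBPG in naive inputs (blue) and pulldowns (orange) by construct; bars are means of 2 libraries and points the libraries. Both fractions are lowest for CBX1 and GFP (54.1 to 71.5 CPM) and highest for eIF4E (141.2 to 158.5 CPM).

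The eIF4E call held with every library left out in turn (1.32 to 1.48) and under every other setting run. The eIF4A call was lost with plain library sizes (0.51, adjusted p = 0.131) and in 3 of 4 fits that left out a library (0.71 without eIF4A input replicate 2, 0.78 without GFP input replicate 1, 0.94 without GFP input replicate 2). The C1 call was lost with plain library sizes (0.63, adjusted p = 0.162), without the count filter (0.72, adjusted p = 0.0663), and whichever C1 or GFP input was left out (0.67 to 0.83). Without input correction, the log2 difference of CEBPG pulldowns from GFP pulldowns was 1.07 ± 0.14 for eIF4E (edgeR adjusted p = 3.43e-05), 0.96 ± 0.14 for eIF4A (adjusted p = 8.44e-04), 0.44 ± 0.15 for C1 (adjusted p = 0.0723) and -0.11 ± 0.15 for CBX1 (adjusted p = 0.808; SE). Of all 12427 IDs, that setting called 678 for eIF4E, 204 for eIF4A, 833 for C1 and 190 for CBX1. Both C1 pulldowns of CEBPG (87.3 and 102.4 CPM) also lay above both GFP pulldowns (71.5 and 69.0 CPM).

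CEBPA and CEBPB inputs did not pass the test against GFP inputs. CEBPA differed by 0.49 ± 1.38 with eIF4E, 0.24 ± 1.37 with CBX1, 0.14 ± 1.42 with eIF4A and -0.17 ± 1.49 with C1 (log2, SE; edgeR adjusted p of 0.936 to 0.999), with standard errors set by a spread that the fit shares with CEBPA's variable pulldowns. The eIF4A sign turned with plain library sizes (-0.22). CEBPB differed by 1.30 ± 0.54 for eIF4E (edgeR adjusted p = 0.250). Its eIF4E inputs, at 8.47 and 16.0 CPM, lay above its GFP inputs, at 4.99 and 5.04. It was called when only those libraries were fitted (1.34, edgeR adjusted p = 0.0219). That fit called 1285 of all 9676 tested IDs, against 346 of 12427 in the main fit. For CBX1, C1 and eIF4A, CEBPB differed by 0.14 ± 0.58, 0.34 ± 0.59 and 0.15 ± 0.59.

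In the stress set, whose cells carried APEX-eIF4A like 1 of the naive groups, CEBPA pulldowns lay around the inputs. The inputs held 477 and 344 CEBPA counts at T0, 522 at T4, 400 and 476 at T20, 652 and 655 with hippuristanol and 680 with DMSO. The pulldowns held 57 and 8 at T0, 104 at T4, 93 and 135 at T20, 51 and 54 with hippuristanol, and 171 and 22 with DMSO. As a share of all counts, CEBPA made up 0.0074% and 0.00113% of the T0 pulldowns, against 0.110% and 0.153% of the naive eIF4A pulldowns. The inputs ran the other way, 0.0071% and 0.00687% at T0 against 0.00084% and 0.00114% for naive eIF4A. The sets were scaled separately and this difference was not tested.

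At the lowest naive pulldown share, 0.105%, the 9 stress pulldowns would have held 742 to 1281 CEBPA counts. They held 8 to 171. The lowest naive share was 7.49 times the highest stress share. Over counts outside the 10 highest IDs of each set, CEBPA had 31.6 to 67.2 CPM in naive inputs and 76.9 to 105.0 in stress inputs, against 2361 to 49346 in naive pulldowns and 16.3 to 171.8 in stress pulldowns.

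**Figure D4:**
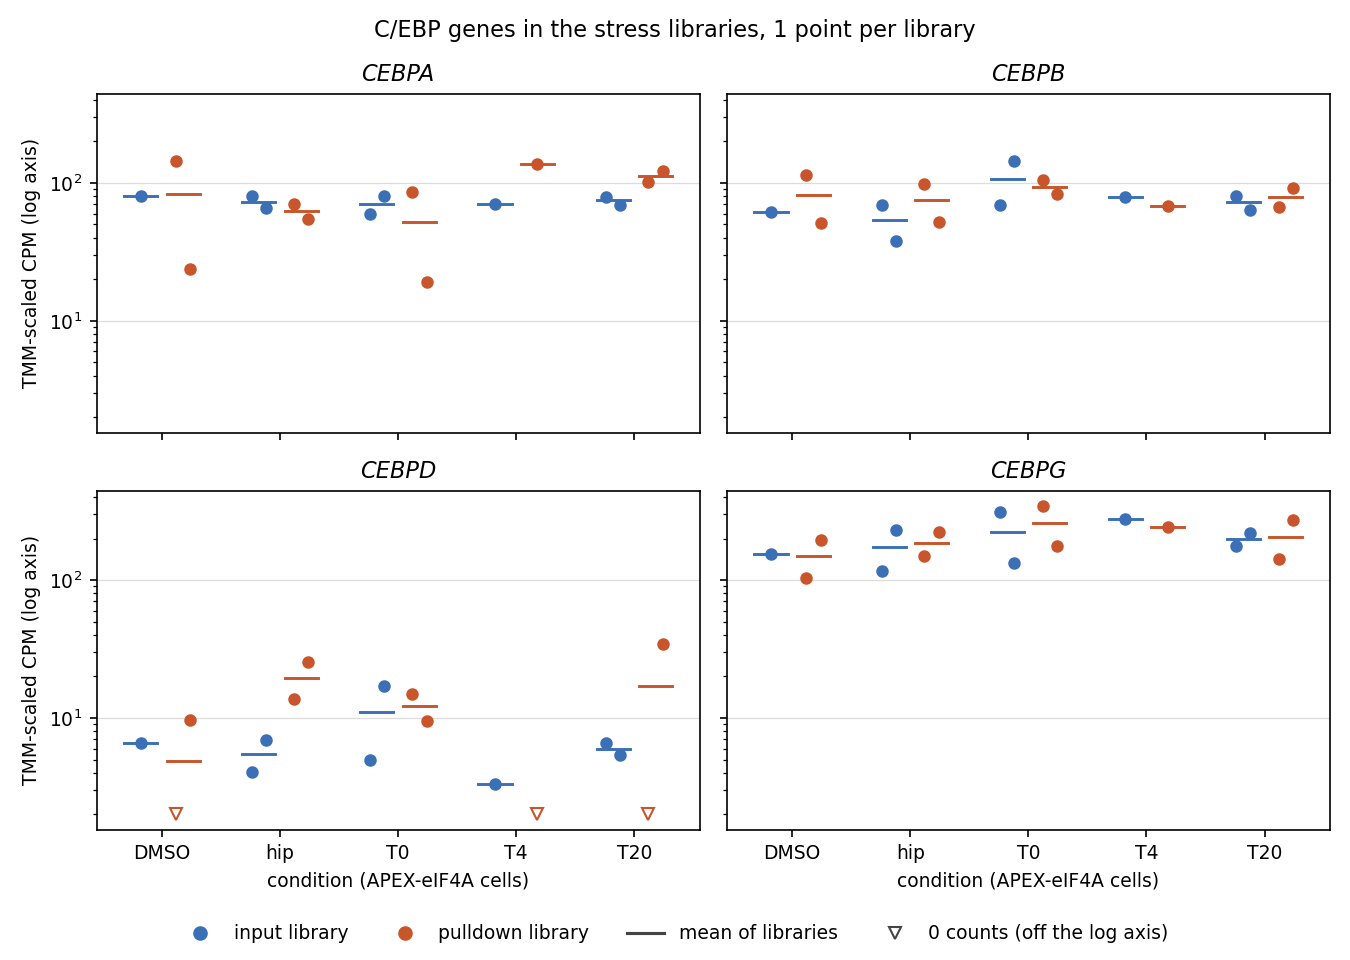
TMM-scaled CPM (log axis) of each C/EBP gene in the 17 stress libraries by condition; blue points are inputs, orange points pulldowns, bars means, and open triangles libraries with 0 counts. CEBPA inputs lie between 59.6 and 80.7 CPM and its pulldowns between 19.1 and 143.5 CPM, around the inputs.

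CEBPA input levels were even across stress conditions, 70.2 ± 14.97 CPM at T0, 74.6 ± 6.94 at T20 and 73.0 ± 10.6 with hippuristanol (SD, n = 2 each), with 80.1 for DMSO and 69.8 at T4 (1 library each). Pulldowns were 52.2 ± 46.8 at T0, 111.8 ± 14.1 at T20, 62.6 ± 10.9 with hippuristanol and 83.7 ± 84.6 with DMSO (SD, n = 2 each). The T0 pair (85.2 and 19.1) and the DMSO pair (143.5 and 23.8) were far apart. T20 pulldowns (101.8 and 121.8) lay above the T20 inputs (79.5 and 69.7) and above both T0 pulldowns. Hippuristanol pulldowns (70.3 and 54.9) overlapped their inputs (80.5 and 65.6) and lay between the DMSO pulldowns.

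CEBPA's log2 pulldown over input was -0.39 ± 0.70 at T0 (SE; 95% interval -1.85 to 1.06), 0.58 ± 0.68 at T20 (-0.84 to 2.01) and -0.23 ± 0.69 with hippuristanol (-1.66 to 1.21), with edgeR adjusted p of 0.908, 0.781 and 1.00. The T0 value was 0.25 without T0 pulldown replicate 2 and -1.90 without T0 pulldown replicate 1. The median of all tested IDs was -0.55, -0.29 and -0.36 in the same comparisons. The share of IDs called was 0.36% at T0, 0.372% at T20 and 0.252% with hippuristanol, and 0 of the 4 members were among them.

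Heat shock and hippuristanol did not pass the test for CEBPA. T20 over T0 was 1.07 ± 0.71 in pulldowns (log2, SE; 95% interval -0.41 to 2.55; edgeR adjusted p = 0.430), 0.09 ± 0.68 in inputs (-1.32 to 1.498; adjusted p = 1.00) and 0.98 ± 0.98 input-adjusted (-1.06 to 3.02; adjusted p = 0.879). Without T0 pulldown replicate 1 the pulldown value was 2.55 and the input-adjusted value 2.46; without T0 pulldown replicate 2 they were 0.39 and 0.31, and none was called. Hippuristanol over DMSO in pulldowns was -0.43 ± 0.70 (-1.88 to 1.02; adjusted p = 0.874), with 1.39 when DMSO pulldown replicate 1 was left out and -1.20 when DMSO pulldown replicate 2 was. The called share of all IDs was 0.144% for T20 over T0 in pulldowns, 0.042% in inputs, 0% input-adjusted and 0% for hippuristanol over DMSO; at an unadjusted p under 0.05 the last pair counted 1226 and 2394 IDs, and DESeq2 called 93 and 886. For T20 over T0, DESeq2 called 1197 IDs in pulldowns and 22 in inputs, against 24 and 7 by edgeR. None of the 28 values of the 4 members in the 7 stress comparisons reached an unadjusted p of 0.05, and with DESeq2 the calls numbered 0. Over all IDs, the share under it was 10.7% at T0, 13.2% at T20 and 5.76% with hippuristanol for pulldown over input. It was 17.1% for T20 over T0 in pulldowns, 1.37% in inputs, 7.35% input-adjusted and 14.4% for hippuristanol over DMSO. For pulldown over input, DESeq2 called 300 of 12104 IDs at T0, 706 of 14050 at T20 and 197 of 14050 with hippuristanol.

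CEBPG had 566 to 2498 counts in stress inputs (median 1401.5) and 74 to 301 in stress pulldowns (median 180.0). Input levels ranged from 115.9 to 312.0 CPM and pulldown levels from 103.2 to 344.0, and the fractions overlapped in every condition with 2 libraries of each. The log2 pulldown over input was 0.23 ± 0.49 at T0, 0.07 ± 0.49 at T20 and 0.10 ± 0.49 with hippuristanol (SE; edgeR adjusted p of 0.927, 0.979 and 1.00), and all 3 were negative with plain library sizes (-0.27, -0.21 and -0.38).

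CEBPB was better covered here than in the naive set, with 376 to 617 counts in inputs (median 542.0) and 35 to 135 in pulldowns (median 61.0). Levels were 37.6 to 144.8 CPM in inputs and 50.9 to 113.3 in pulldowns, again overlapping. The log2 pulldown over input was -0.18 ± 0.59 at T0, 0.14 ± 0.59 at T20 and 0.48 ± 0.59 with hippuristanol (SE; edgeR adjusted p of 0.961, 0.960 and 0.993). The T0 sign turned with DESeq2 (0.12), and the T20 sign with plain library sizes (-0.11). Per kilobase of span, stress inputs held 22.9 to 31.0 CPM of CEBPA and 17.9 to 68.7 of CEBPB.

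CEBPD had 25 to 73 counts in stress inputs and 0 to 38 in pulldowns. Hippuristanol pulldowns (10 and 25 counts; 13.8 and 25.4 CPM) lay above their inputs (33 and 69 counts; 4.08 and 6.91 CPM). T20 pulldowns had 0 and 38 counts, DMSO pulldowns 0 and 9, T0 pulldowns 10 and 4, and the T4 pulldown 0. A count of 0 allows up to 3.28 CPM at T20, 2.52 with DMSO and 3.97 at T4. No CEBPD comparison was called, with edgeR adjusted p of 0.633 to 1.00.

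Because a share of the family's own counts needs no scaling between libraries, it was also followed as a description. CEBPA made up 7.02% to 22.1% of the 4 genes' counts in naive inputs and 81.9% to 99.4% in naive pulldowns. In stress inputs it made up 13.4% to 29.9%, and in stress pulldowns 6.61% to 39.9%. CEBPG had median shares of 82.4% in naive inputs, 56.3% in stress inputs and 54.3% in stress pulldowns, and 3.03% in naive pulldowns, where CEBPA's median was 96.8%. For every 100 CEBPG counts, CEBPA had 8.40 to 31.4 in naive inputs, 487 to 18936 in naive pulldowns, 19.1 to 69.5 in stress inputs and 10.8 to 139.0 in stress pulldowns.

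**Figure D5:**
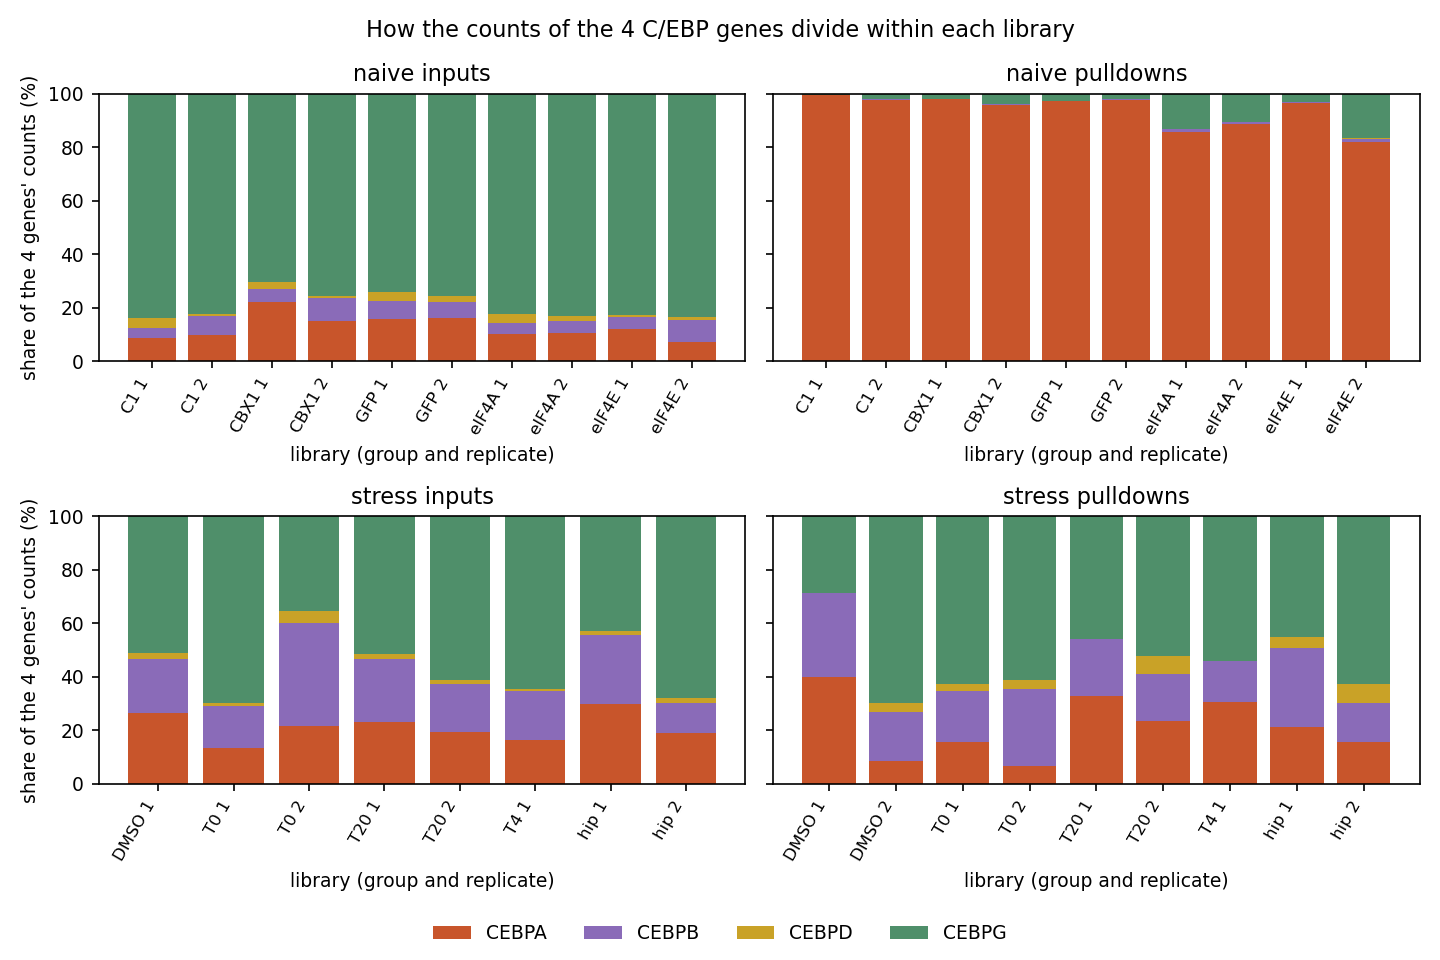
Share of the 4 C/EBP genes' summed counts (%) taken by each gene, 1 bar per library, for inputs (left) and pulldowns (right) of the naive (top) and stress (bottom) sets. CEBPA fills 81.9% to 99.4% of each naive pulldown and at most 39.9% of any other library.

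Across the 10 naive pulldowns, which share constructs and library scaling, CEBPA's log2 CPM correlated at r = -0.385 with CEBPG and r = -0.308 with CEBPB. The IDs most like it, among 7919 whose mean log2 CPM was 3 or more, were ENSG00000113761.10 (r = 0.967) and ENSG00000067445.19 (r = 0.925); without C1 pulldown replicate 1 they stood at 0.932 and 0.848 (9 pulldowns), and over all 20 naive libraries at 0.491 and 0.578. The median r over the 7919 IDs was -0.05, and 4 exceeded 0.9. Their levels were of another order: ENSG00000113761.10 had 41.2 CPM in C1 pulldown replicate 1, where CEBPA had 16527, and 7.23 CPM in eIF4E pulldown replicate 2, where CEBPA had 744.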

How the data were processed

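Counts were used as deposited: integers for each Ensembl gene ID and version, which the authors made with cutadapt, HISAT2 and featureCounts on GRCh38, per the submitters' processing notes. No version or strand setting is named for them, nor how multi-matching reads were handled (not given in the sources used). CEBPA and the lncRNA CEBPA-DT lie 287 bases apart in RefSeq and do not overlap there. Whether they shared reads in the authors' counting was not tested. No molecular identifiers are named in the labels.

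Sample titles gave the groups, also for the hippuristanol inputs, whose stress label says heat shock, and a column name listed for 2 samples was read by its table. Whether replicates are separate cultures is unstated, so p-values measure only how these libraries vary, which may be technical variation. Same-numbered inputs and pulldowns deviated together at r = -0.07 to 0.14, so numbers were not taken as pairs.

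Each table was fitted whole with edgeR 4.0.16 in R 4.3.3 (filterByExpr, TMM, robust glmQLFit, 2-sided quasi-likelihood F test, a mean per group); 12427 naive IDs (3 of the 4 genes, without CEBPD) and 16678 stress IDs (all 4) passed the filter, p-values were adjusted by Benjamini-Hochberg over each table, and an ID was called at an adjusted p under 0.05. A standard error is the fold divided by the square root of F. The step was tested on simulated counts. Alternatives were plain library sizes, TMM without the 10 highest IDs, no filter on counts, DESeq2 1.42.0, a replicate block, pulldowns without input correction, a fit of only the compared libraries, and leaving out each library. The 2 comparisons with CBX1 were added after values were seen. The genes named are the 4 members and the 2 IDs most correlated with CEBPA. Members and lists were chosen with earlier results of these data known. The gene table used here, for GRCh38.p14, holds no Ensembl IDs, so wider gene lists and cell type markers could not be applied.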

Additional observations from a re-analysis of the deposited data

Results flagged for a closer look

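CEBPA in the T4 heat-shock pulldown had 137.8 CPM, above both T0 pulldowns (85.2 and 19.1 CPM); T4 has 1 pulldown and 1 input and entered no comparison. The T4 input, at 69.8 CPM, lay between the T0 inputs.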

How the results depend on the processing

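All values here are log2 differences unless stated. CEBPA's naive pulldown-over-input folds for C1, GFP, eIF4E, eIF4A and the mean kept their sign under every setting run. The CBX1 fold was not followed through the other settings. With plain library sizes the eIF4A value was 7.00 and the 5-construct mean 8.17, moves larger than the replicate spread. Plain library sizes in place of TMM also turned the sign of CEBPG for C1 (0.088) and eIF4E (0.77) pulldown over input, CBX1 over GFP (0.028), eIF4E over GFP (0.27), eIF4E over CBX1 (0.24) and the T0, T20 and hippuristanol pulldown over input (-0.27, -0.21 and -0.38); of CEBPB for C1 (0.067), eIF4E (0.28), the mean (0.049), eIF4A inputs (-0.21) and T20 pulldown over input (-0.11); and of CEBPA for eIF4A inputs (-0.22). The CEBPG input calls weakened to 0.63 for C1 and 0.51 for eIF4A, and to 0.72 for C1 without the count filter. No input correction turned CEBPG for C1 over GFP (0.44), eIF4E over GFP (1.07) and eIF4A over eIF4E (-0.11). CEBPB at T0 turned with DESeq2 (0.12) and with only the libraries compared (0.017). The likeness of CEBPG to CEBPA turned over 20 libraries (r = 0.056).

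Left out in turn, single libraries gave these ranges where a sign or call changed. CEBPA had -2.39 to 0.11 for eIF4E over GFP, -1.71 to 0.79 for eIF4A over eIF4E, -0.10 to 0.28 for eIF4A inputs, -1.90 to 0.25 for T0, -0.11 to 0.33 for T20 over T0 inputs and -1.20 to 1.39 for hippuristanol over DMSO. CEBPG had 0.67 to 0.83 for C1 inputs, 0.71 to 1.01 for eIF4A inputs, -0.24 to 0.014 for C1, -0.23 to 0.0038 for CBX1 over GFP, -0.013 to 0.29 for eIF4A over GFP, -0.13 to 0.10 for CBX1 inputs, and -0.36 to 0.98, -0.50 to 0.49 and -0.31 to 0.69 for T0, T20 and hippuristanol. CEBPB had -0.58 to 0.45 for C1, -0.41 to 0.53 for CBX1 inputs, -0.23 to 0.78 for C1 inputs, -0.042 to 0.28 for eIF4A inputs, and -0.62 to 0.44, -0.13 to 0.39 and -0.076 to 0.99 for the stress conditions in that order. The cause was not tested.

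The replicate block changed no call; with it the CEBPG input differences were 0.77 for C1, 1.42 for eIF4E and 0.87 for eIF4A. Low counts limit CEBPD in naive libraries (0 to 14) and CEBPB in CBX1 pulldowns (4 and 7).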
